A study of Mus musculus with 2 samples.

Results

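The genes of folate, serine and nucleotide synthesis were followed in the limb of the mid-gestation mouse embryo. The set comprised 32 genes, chosen by symbol and matched by Ensembl gene identifier among 43346 gene rows, and all 32 were found. Total RNA longer than 200 nt was sequenced from limb tissue of embryos of strain B6NCrl, both sexes together, at embryonic day 10.5. There was 1 group with 2 biological replicates. Replicate 2 was a pool of 51 embryos and replicate 1 a pool of 69 embryos, so neither library describes a single animal, and fore- and hindlimb were not separated in the labels. No treatment or mutant was compared. The questions were therefore how high each gene stood in the tissue, which of 2 related genes prevailed, which transcripts carried the signal, and whether both pools gave the same level.

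Cells that divide must make purines and pyrimidines before they can copy their DNA. Serine, made from a glycolytic intermediate or taken up, gives a carbon unit to tetrahydrofolate, and the folate enzymes of the cytosol and of the mitochondrion carry that unit to the purine ring, to thymidylate and to methionine. Folate supply is known for its importance in embryonic development, and antifolate drugs act on this pathway.

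The libraries held 43983028 expected counts in replicate 2 and 40509328 in replicate 1, with spike-in RNA at 3.45% of counts in replicate 2 and 3.89% in replicate 1. Expected counts are estimated numbers of reads for a gene and need not be whole. The expressed members had between 1006 and 31703 expected counts in a library. All 10 limb mesenchyme markers were at 1 TPM or more in both libraries, among them Prrx1 at 184 TPM in replicate 2 and 141 TPM in replicate 1, while 1 of 4 neural markers (Tubb3, at 5.76 TPM in replicate 2 and 6.59 TPM in replicate 1) and 1 of 4 liver markers (Apoa1, at 1.42 TPM in replicate 2 and 1.08 TPM in replicate 1) reached it in both. The 4 erythroid markers were all expressed, with a summed level of 9512 TPM in replicate 2 and 11676 TPM in replicate 1. In a whole tissue, fewer cells of a type and less RNA per cell cannot be told apart.

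TPM, a measure of transcript abundance, divides each gene's reads by its length and scales each library to the same total, so levels of different genes can be compared on it. Of the 32 genes, 31 reached 1 TPM in both libraries, against 55.2% of all protein-coding genes. Their levels were high: the median of the members was 68.9 TPM (median of the 2-library means over 32 genes), and that of the 11853 expressed protein-coding genes was 21.3 TPM. The members' own medians were 72.1 TPM in replicate 2 and 75.7 TPM in replicate 1. In all, 27 members stood above the median of expressed protein-coding genes, 20 above their upper quartile of 56.9 TPM, and 11 at 100 TPM or more, a level that 14.3% of expressed protein-coding genes reached. The members summed to 3629 TPM in replicate 2 and 3915 TPM in replicate 1, or 0.435% of all protein-coding TPM in replicate 2 and 0.472% in replicate 1.

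The levels spanned 39.2-fold among the 31 expressed members. Rrm2, the small subunit of ribonucleotide reductase, was highest at 559 ± 41.8 TPM (SD, n = 2), and Mtr, methionine synthase, was lowest at 14.3 ± 2.59 TPM (SD, n = 2). Next below Rrm2 came Paics, Phgdh, Tyms, Impdh2 and Rrm1. In the full order, 12 of 31 pairs of neighbours had deposited interval bounds that did not overlap in either library. Rrm2 and Paics were apart in this sense, as were Paics and Phgdh, whereas Phgdh and Tyms were not. The long middle stretch from Atic at 70.4 TPM to Ppat at 47.4 TPM held no adjacent genes that were apart in both libraries, although genes farther apart in it were, such as Atic and Ppat.

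**Figure D1:**
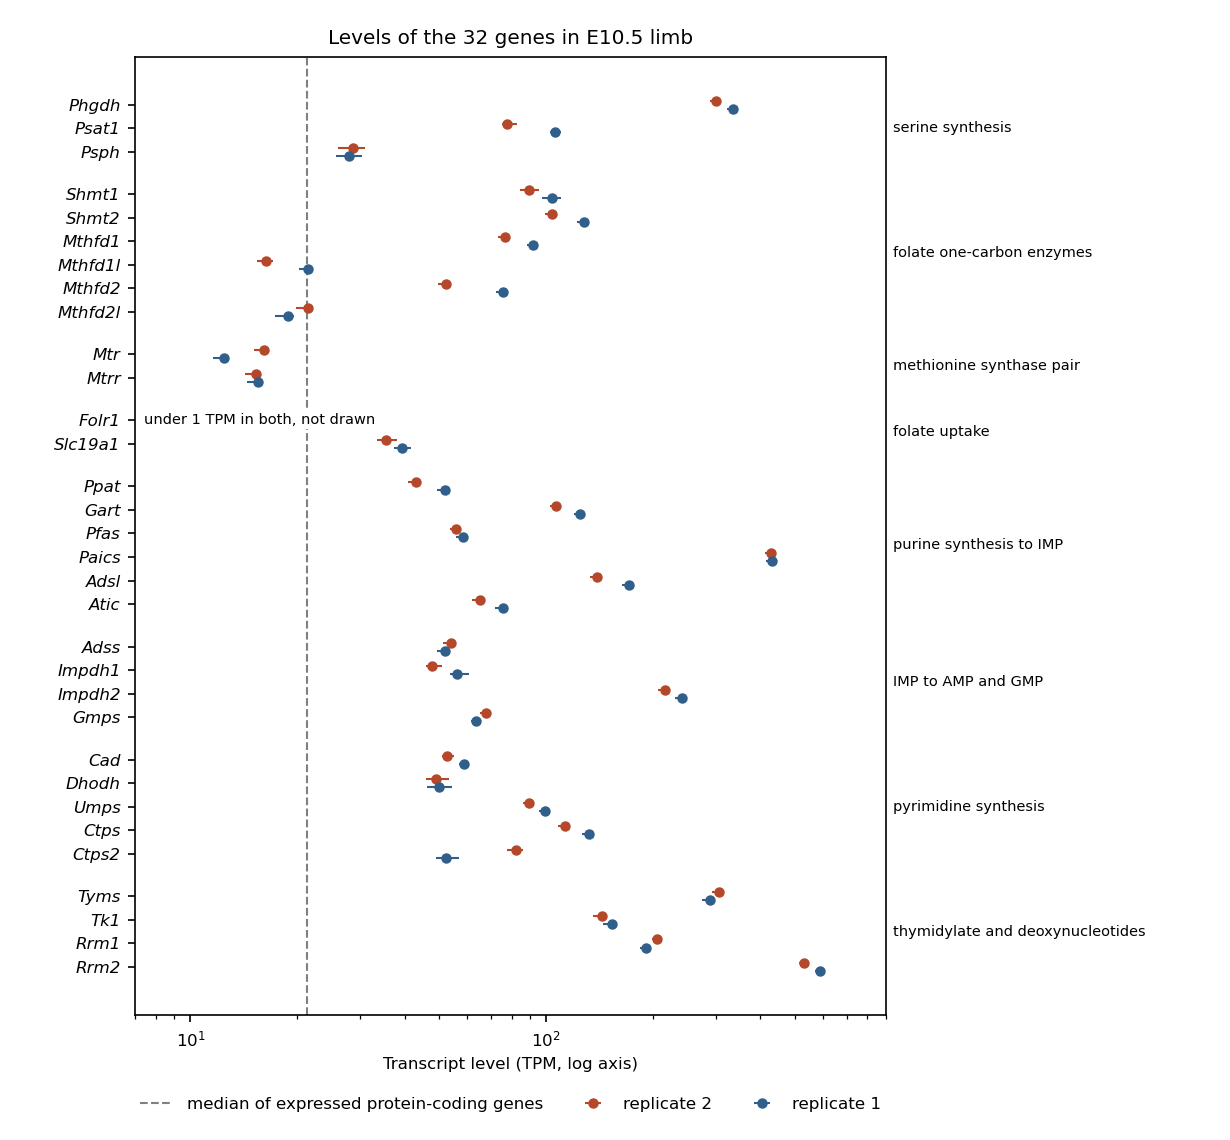
Level of each of the 32 genes in TPM (log axis) in replicate 2 (red) and replicate 1 (blue), grouped by role; bars are the deposited interval bounds, whose level is not stated, and the dashed line is the median of expressed protein-coding genes (21.3 TPM). Rrm2, Paics, Phgdh, Tyms, Impdh2 and Rrm1 lie farthest right, the methionine synthase genes Mtr and Mtrr left of the line, and Folr1 is not drawn.

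Promoter windows from RefSeq (GRCm38.p6, 250 bases before to 50 after an annotated start) were present for 29 members, in 36 windows; Folr1, Dhodh and Pfas had none in the table. Windows were searched on both strands for 5 sets of letters. These were CACGTG (the E-box bound by MYC-family factors), TTTNNCGC (E2F-type letters) and TGATGNAAT (the composite element bound by ATF4 with a C/EBP partner). The others were the palindrome of NRF1 (in capitals in the Shmt2 stretch) and CCAAT (the box bound by NF-Y). N stands for any base, so the E2F-type letters are looser than an E2F consensus. No site of 1 motif overlapped a site of another. CACGTG was in the windows of 4 of 29 members (13.8%), against 8.09% of all genes in the table. The 4 sites are shown because they belong to Paics, Impdh2 and Tyms, which are among the 5 highest members, and to Atic. They lie on chr5:76951087-76951116 (plus strand, Paics), chr9:108560314-108560343 (plus strand, Impdh2), chr5:30073669-30073698 (minus strand, Tyms) and chr1:71557137-71557166 (plus strand, Atic), and the motif begins 203 bases before the RefSeq start in Paics, 110 in Impdh2, 61 in Tyms and 7 in Atic. Capitals mark the motif.
Paics: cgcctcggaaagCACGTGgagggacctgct
Impdh2: gagctcgataagCACGTGgttacccagctc
Tyms: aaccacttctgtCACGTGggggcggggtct
Atic: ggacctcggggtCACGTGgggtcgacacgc
The E2F-type letters were also in the windows of 4 of 29 members (13.8%; Ppat, Psph, Shmt2 and Tyms), against 5.93% of all genes. NRF1 letters were in 2 members (Ctps and Shmt2), or 6.90%, against 1.07% of all genes. CCAAT was in 15 members (51.7%), against 41.1% of all genes, and TGATGNAAT in 0 members, against 1.08% of all genes. A match is a description of letters in a window and no evidence that a factor binds there.

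The 250 bases upstream of Tyms and Shmt2 are given because each window held E2F-type letters beside the motif in capitals. In both, the E2F-type letters fell after the start and so outside the stretch shown. The Tyms stretch is chr5:30073626-30073875 and the Shmt2 stretch chr10:127522445-127522694, both on the minus strand and written 5′ to 3′. Capitals mark CACGTG in Tyms and the NRF1 palindrome in Shmt2, which begins 19 bases before the Shmt2 start.
Tyms: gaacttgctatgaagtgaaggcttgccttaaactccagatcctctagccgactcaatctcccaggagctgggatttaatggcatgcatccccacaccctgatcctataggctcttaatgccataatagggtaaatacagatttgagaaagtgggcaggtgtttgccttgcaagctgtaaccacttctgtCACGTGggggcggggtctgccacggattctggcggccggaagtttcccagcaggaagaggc
Shmt2: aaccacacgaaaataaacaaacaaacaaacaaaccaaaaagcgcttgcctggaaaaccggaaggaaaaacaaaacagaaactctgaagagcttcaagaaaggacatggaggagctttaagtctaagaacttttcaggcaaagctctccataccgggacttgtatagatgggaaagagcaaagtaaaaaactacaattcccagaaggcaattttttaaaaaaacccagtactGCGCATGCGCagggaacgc

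Serine synthesis was led by its entry enzyme. Phgdh, which oxidises 3-phosphoglycerate, was at 300.05 TPM in replicate 2 and 335 TPM in replicate 1. Psat1, the aminotransferase of the next step, was at 77.8 TPM in replicate 2 and 106 TPM in replicate 1, and Psph, the phosphatase that releases serine, at 28.6 TPM in replicate 2 and 27.9 TPM in replicate 1. The level thus stepped down along the pathway in both libraries, with no overlap between the genes. Processed pseudogenes with near-identical sequence to Phgdh took expected counts equal to 0.572% of its own in replicate 2 and 0.764% in replicate 1. Psph starts 451 bases from the start of Cct6a, a chaperonin subunit gene at 562 TPM in replicate 2 and 622 TPM in replicate 1, and the 2 genes overlap by 452 bases. Since strand use in counting is not given in the sources used here, reads from that overlap cannot be told apart.

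Of the 6 folate enzymes, Shmt1, Shmt2, Mthfd1 and Mthfd2 lay above the median of expressed protein-coding genes on average, and Mthfd1l and Mthfd2l just below it. Shmt2, the mitochondrial serine hydroxymethyltransferase, was at 104 TPM in replicate 2 and 128 TPM in replicate 1, and its cytosolic counterpart Shmt1 at 89.8 TPM in replicate 2 and 104 TPM in replicate 1. Mthfd1, the trifunctional cytosolic enzyme, was at 76.7 TPM in replicate 2 and 92.0 TPM in replicate 1, whereas Mthfd1l, the mitochondrial formate-producing synthetase, was at 16.4 TPM in replicate 2 and 21.4 TPM in replicate 1. Mthfd2, the mitochondrial dehydrogenase and cyclohydrolase known from embryos and tumours, was at 52.4 TPM in replicate 2 and 75.8 TPM in replicate 1. Its relative Mthfd2l was at 21.3 TPM in replicate 2 and 18.8 TPM in replicate 1. Relative to its level, Mthfd2 was the folate enzyme whose 2 libraries lay farthest apart. By TPM, Mthfd2l was higher in the library in which Mthfd2 was lower. In the comparison of the pools by counts, given below, the interval of Mthfd2l included 0.

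Methionine synthesis stood at the bottom of the set. Mtr, the cobalamin-dependent methionine synthase, was at 16.1 TPM in replicate 2 and 12.4 TPM in replicate 1. Mtrr, the reductase that keeps it active, was at 15.3 TPM in replicate 2 and 15.5 TPM in replicate 1, and the interval bounds of the 2 genes overlapped in at least 1 library. Folate uptake was uneven as well. Slc19a1, the reduced folate carrier, was at 35.5 TPM in replicate 2 and 39.3 TPM in replicate 1, and overlaps Col18a1 on the other strand by 8825 bases. Folr1, a folate receptor anchored in the membrane, had 0 expected counts in replicate 2 and 2 in replicate 1. The limit that the count of 0 in replicate 2 allows, 3 counts, equals 0.153 TPM for Folr1, for counting error only, and the 2 counts in replicate 1 equal 0.21 TPM. The deposited posterior mean, an estimate pulled away from 0, was 1.19 TPM for Folr1 in replicate 2 and 1.38 TPM in replicate 1, so its status as the one unexpressed member rests on the TPM column.

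The purine ring is built on a sugar phosphate by 6 proteins, and all 6 genes were expressed, from 47.4 to 430 TPM (2-library means of 47.415 and 429.79 TPM). Paics, which adds carbon dioxide and aspartate, was highest by a wide margin at 428 TPM in replicate 2 and 431 TPM in replicate 1. Ppat, the amidotransferase that commits the precursor to the pathway, was lowest by gene total at 43.0 TPM in replicate 2 and 51.9 TPM in replicate 1. The step between them falls inside a pair of neighbours, Ppat (chr5:76913249-76951578, minus strand) and Paics (chr5:76951307-76967509, plus strand). They are transcribed in opposite directions from starts 271 bases apart. Their annotated 5′ ends overlap by 272 bases, so each gene runs across the start of the other. The E-box site printed for Paics lies upstream of the Paics start and inside Ppat. By gene total, the 2 neighbours were the highest and the lowest gene of the purine route in both libraries; on coding transcripts alone, Pfas, at 17.8 TPM in replicate 2 and 17.5 TPM in replicate 1, lay below Ppat.

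Gart, which carries 3 activities of the route in a single protein, was at 107 TPM in replicate 2 and 125 TPM in replicate 1. Adsl, adenylosuccinate lyase, which acts at 2 steps of purine synthesis, was at 139 TPM in replicate 2 and 171 TPM in replicate 1. Pfas, which adds nitrogen from glutamine, was at 55.7 TPM in replicate 2 and 58.3 TPM in replicate 1, and Atic, which closes the ring with a formyl unit from folate, at 65.4 TPM in replicate 2 and 75.5 TPM in replicate 1. Both folate-using genes of the route, Gart and Atic, therefore lay between the extremes set by Paics and Ppat.

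From inosine monophosphate (IMP) the route divides. Impdh2, the dehydrogenase that leads to guanine nucleotides, was at 215 TPM in replicate 2 and 241 TPM in replicate 1. Its isozyme Impdh1 was at 47.7 TPM in replicate 2 and 56.1 TPM in replicate 1. Gmps, GMP synthetase, was at 67.6 TPM in replicate 2 and 63.7 TPM in replicate 1, and Adss, adenylosuccinate synthetase on the adenine side, at 53.9 TPM in replicate 2 and 52.0 TPM in replicate 1. A processed pseudogene of Impdh2 that shares 1545 nt at 99.7% identity held expected counts equal to 2.87% of the gene's own in replicate 2 and 2.09% in replicate 1. These counts themselves depend on how reads were divided between gene and pseudogene, which was not tested.

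By gene total, the pyrimidine genes lay within a narrow range, from 49.5 to 123 TPM on average. Cad, the trifunctional entry protein, was at 52.7 TPM in replicate 2 and 58.6 TPM in replicate 1. Dhodh, the dehydrogenase of the mitochondrial membrane, was at 49.1 TPM in replicate 2 and 49.9 TPM in replicate 1, and Umps, which makes uridine monophosphate, at 89.5 TPM in replicate 2 and 99.5 TPM in replicate 1. Cad and Dhodh were not apart in both libraries. The last step has 2 isozymes: Ctps was at 113 TPM in replicate 2 and 132 TPM in replicate 1, and the X-linked Ctps2 at 82.3 TPM in replicate 2 and 52.4 TPM in replicate 1. Ctps2 was the member with the largest relative spread between pools, a coefficient of variation of 31.5% against a median of 8.09% over the expressed members.

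The genes that supply deoxynucleotides had the highest levels of any role, with a median of 248 TPM over 4 genes. Rrm2 was at 529.85 TPM in replicate 2 and 589 TPM in replicate 1, and Rrm1, the large subunit, at 205 TPM in replicate 2 and 191 TPM in replicate 1. Tyms, thymidylate synthase, was at 307 TPM in replicate 2 and 288 TPM in replicate 1, and Tk1, the S-phase thymidine kinase, at 143 TPM in replicate 2 and 153 TPM in replicate 1. All 4 were above 100 TPM in both libraries. For Tyms and Tk1 the gene total holds much RNA assigned to noncoding transcripts, described with the transcript classes.

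Within families, 11 pairs of related genes were compared by whether their deposited interval bounds were apart in the same direction in both libraries, and 10 pairs met this. No pair shared a stretch of 100 nt or more at 97% identity, so reads were not divided between its genes through such a stretch. The mitochondrial Shmt2 was 1.19-fold above the cytosolic Shmt1, but 2.05-fold above it when only protein-coding transcripts were counted. Mthfd2 was 3.15-fold above Mthfd2l, Mthfd1 4.49-fold above Mthfd1l, and Impdh2 4.41-fold above Impdh1. Ctps was 1.86-fold above Ctps2 on average, with a log2 ratio of 0.46 in replicate 2 and 1.34 in replicate 1, so the direction was shared and the size was not. The Ctps2 level in this ratio includes a short leading transcript, described with the coding forms.

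Rrm2 and Tk1, forms typical of dividing cells, stood far above their relatives Rrm2b and Tk2. Rrm2 was 147-fold above Rrm2b, the p53-induced small subunit at 3.59 TPM in replicate 2 and 4.02 TPM in replicate 1. Tk1 was 10.3-fold above the mitochondrial Tk2, or 5.50-fold over protein-coding transcripts alone. Adss was 26.8-fold above Adssl1, the muscle isozyme at 2.48 TPM in replicate 2 and 1.57 TPM in replicate 1. Slc19a1 was 2.70-fold above Slc46a1, the proton-coupled folate transporter. Rrm2 stood 2.83-fold above its partner subunit Rrm1. The pair that was not called was Folr1 and Folr2, with Folr2 at 0.66 TPM in replicate 2 and 0.31 TPM in replicate 1.

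**Figure D2:**
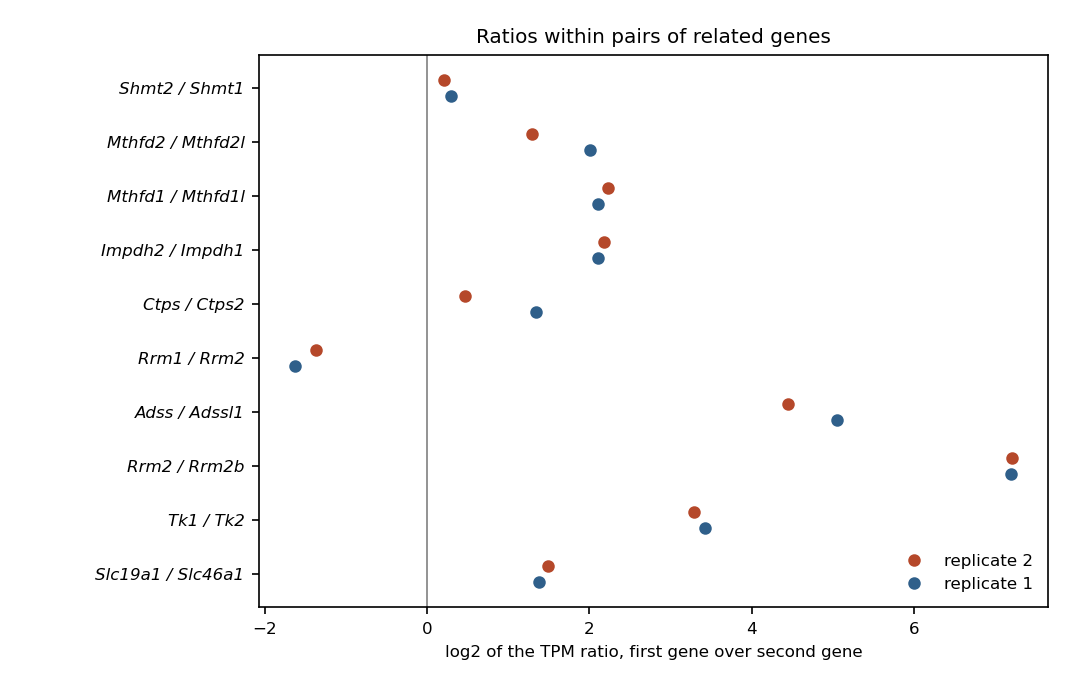
log2 ratio of TPM within each of the 10 called pairs, the gene named left of the stroke over the other, in replicate 2 (red) and replicate 1 (blue). Points right of 0 mean that the gene named left is higher; both libraries lie on the same side of 0 in every pair drawn, and Ctps/Ctps2 and Mthfd2/Mthfd2l show the widest gaps between libraries.

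The transcript tables list 182 transcripts for the 32 genes. The transcript that took the largest share of its gene's TPM was the same in both libraries for all 31 expressed members, against 94.0% of expressed protein-coding genes, and for the 24 with several annotated transcripts, against 91.8% of such genes. It was a noncoding class in 3 members (Pfas, Adsl and Tyms), against 5.81% of expressed protein-coding genes. Classes are those of the annotation; a transcript of the class retained intron holds intronic sequence, and one of the class nonsense-mediated decay has an early stop. How far unspliced precursor RNA enters these classes was not tested.

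Tyms showed the widest gap between gene and coding level. Its coding transcript Tyms-201 (307 codons) took 11.7% of the gene's TPM in replicate 2 and 11.5% in replicate 1. The leading Tyms-205, a short decay-class transcript of 797 nt, was at 131 TPM in replicate 2 and 128 TPM in replicate 1, and the retained-intron transcript Tyms-202 at 81.8 TPM in replicate 2 and 78.2 TPM in replicate 1. Other genes in the tables that share stretches of 100 nt or more at 97% identity or above with a coding Tyms transcript held expected counts equal to 23.0% of its own in replicate 2 and 18.01% in replicate 1. These are whole-gene counts, from protein-coding genes that share 360 nt and 355 nt with Tyms, and not counts on the shared stretch. On coding transcripts alone, Tyms was no longer among the 5 highest members and lay below Ppat, whose coding transcripts were at 42.2 TPM in replicate 2 and 50.4 TPM in replicate 1.

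In Pfas the retained-intron transcript Pfas-205 was at 34.8 TPM in replicate 2 and 37.3 TPM in replicate 1, and the full coding transcript Pfas-201 (1337 codons) at 17.7 TPM in replicate 2 and 17.5 TPM in replicate 1. Adsl was divided between Adsl-205, a decay-class transcript at 63.2 TPM in replicate 2 and 77.3 TPM in replicate 1, and coding transcripts, which together took 53.8% in replicate 2 and 53.3% in replicate 1. These 2 genes and Tyms kept nearly the same division in both pools. For Pfas, other genes with near-identical stretches held counts equal to 37.0% of its own in replicate 2 and 30.7% in replicate 1. Most were whole-gene counts of a protein-coding gene that shares 119 nt with Pfas (2803 in replicate 2 and 2289 in replicate 1). For Adsl the figure was 8.79% in replicate 2 and 4.69% in replicate 1, the whole-gene counts of a gene that shares 100 nt. How many of these counts came from the shared stretches was not tested.

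Over the 29 members whose expressed transcripts all have a class, 22 had at least 90% of their TPM in coding transcripts in both libraries, as did 63.5% of expressed protein-coding genes. The median coding share was 97.1% for these members and 98.1% for expressed protein-coding genes. Only Pfas and Tyms were below 50% in both, or 2 of 29, against 7.09% of expressed protein-coding genes. Shmt1 had 56.1% in coding transcripts in replicate 2 and 60.3% in replicate 1, Tk1 55.3% in replicate 2 and 52.0% in replicate 1, and Atic 72.7% in replicate 2 and 66.3% in replicate 1. Shmt2, Mthfd1, Mthfd2l, Mtr, Mtrr, Gmps and Rrm1 have a single annotated transcript in the tables, so their share says nothing about processing. Cad and Dhodh were left out of this count, because the annotation used for names lacks some of their transcripts, including the 2318 nt transcript that led Dhodh with 59.4% in replicate 2 and 61.5% in replicate 1. Retained-intron transcripts took 35.2% of the Dhodh TPM in replicate 2 and 32.2% in replicate 1. Transcripts classed as coding took 3.73% of it in replicate 2 and 4.73% in replicate 1.

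**Figure D3:**
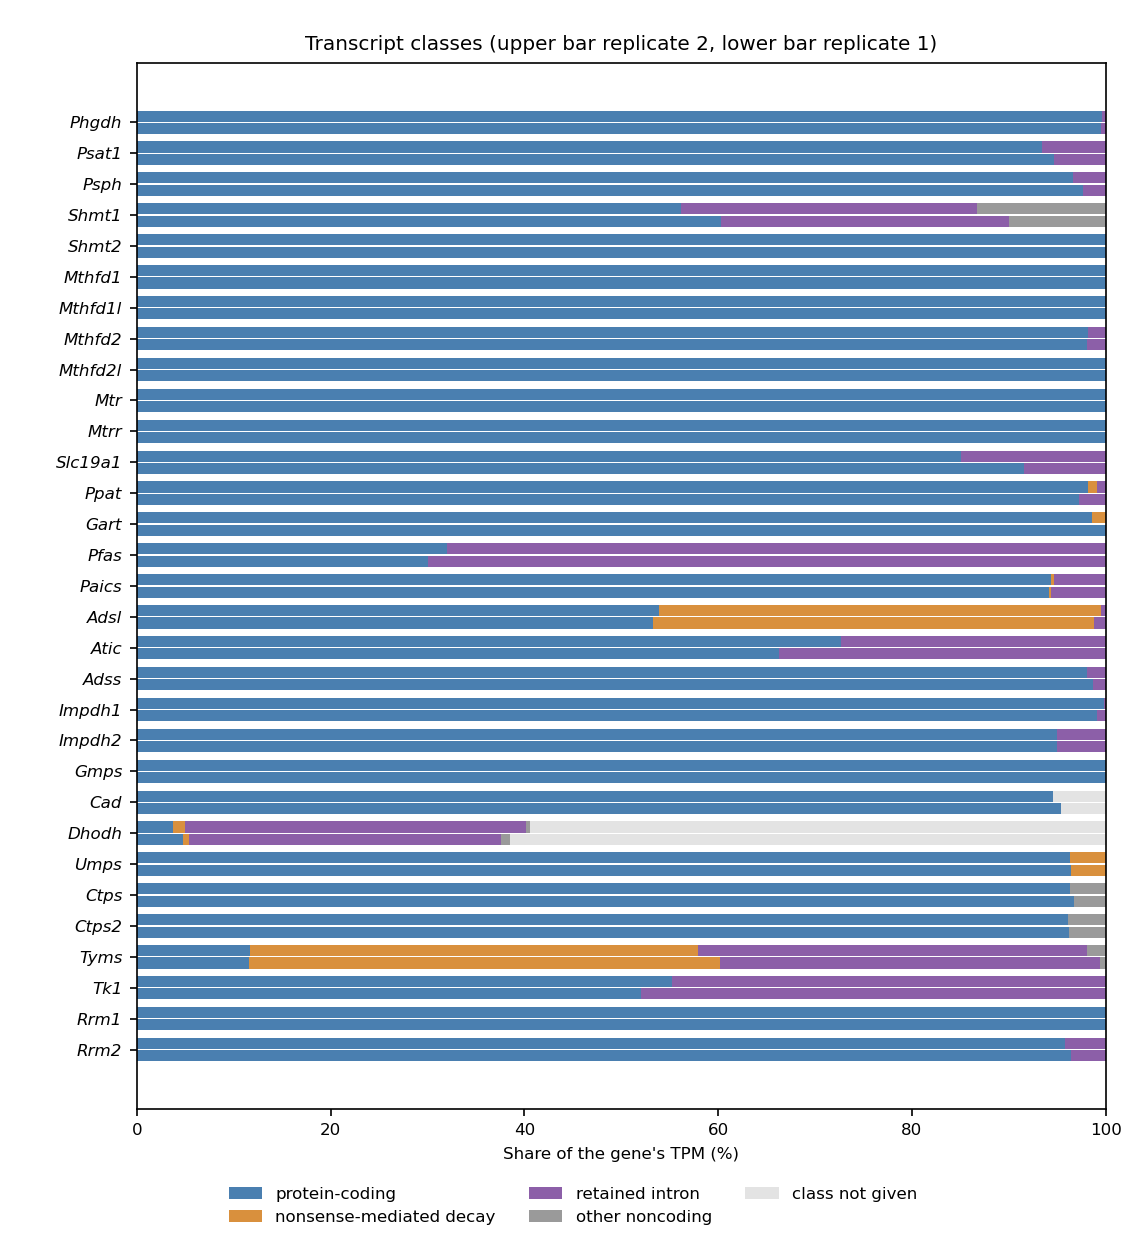
Share of each expressed gene's TPM by annotated transcript class; the upper bar of a gene is replicate 2 and the lower bar replicate 1. Coding transcripts fill most bars, while Tyms (11.7% coding in replicate 2 and 11.5% in replicate 1), Pfas (31.99% in replicate 2 and 30.0% in replicate 1), Adsl, Tk1 and Shmt1 hold large noncoding shares that are alike in both libraries.

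Several members were made as more than 1 coding form. Gart-201, the full form of 1010 codons, was at 82.0 TPM in replicate 2 and 96.0 TPM in replicate 1, and Gart-202, which has 433 codons, at 23.2 TPM in replicate 2 and 28.8 TPM in replicate 1. A shorter Gart product that keeps only the glycinamide ribonucleotide synthetase part is known in mammals. Gart-202 took 21.8% of the gene's TPM in replicate 2 and 23.1% in replicate 1, so the division hardly differed. In Paics, Paics-202 and Paics-203 shared most of the signal, at 220 and 157 TPM in replicate 2 (219.96 and 157.38) and 219 and 166 TPM in replicate 1, and both have 425 codons. Ctps2 was led by Ctps2-203, a 741 nt transcript of 151 codons at 39.4 TPM in replicate 2 and 24.7 TPM in replicate 1, ahead of Ctps2-202 with 521 codons at 30.1 TPM in replicate 2 and 17.6 TPM in replicate 1. Since TPM divides by length, such short transcripts raise a gene's level more than long ones with the same reads.

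Between the pools, members were lower in replicate 2 relative to other genes. The difference was taken as log2 CPM (counts relative to library size, scaled by the trimmed mean of M values, TMM) in replicate 2 minus replicate 1. Its median over 31 members was -0.30, and that over the 16878 genes averaging at least 10 counts was 0.01. Of the 31, 28 members were below 0, against 48.1% of all genes, and all 28 had a 95% counting interval below 0, against 26.2% of all genes and 43.1% of the 7408 genes averaging at least 1000 counts. Ctps2 at 0.45 (95% counting interval 0.36 to 0.53) and Mtr at 0.23 (0.13 to 0.33) had intervals above 0, as did 27.1% of all genes, and the interval of Mthfd2l at 0.04 included 0. The counting interval covers counting error alone. With 2 libraries of 1 group there is no spread within a pool to test against, so no p-value is given and the difference is one between these libraries.

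How many members were lower depended on the scaling. Below 0 were 28 of 31 members with TMM, against 48.1% of all genes, and 28 with DESeq2 size factors, against 49.4%. The number was 23 with deposited TPM, against 30.0% of all genes, and 18 with scaling to the spike-in RNA, against 17.5%. Relative to TMM, the median shift per gene on the log2 scale was 0.25 with spike-in scaling and 0.13 with deposited TPM. The median of all genes lay at 0.264 with spike-in scaling and at 0.116 with deposited TPM. Relative to the median of all genes under the same scaling, 28 of 31 members were lower under each of the 4 scalings, and the members' median lay at -0.31 with TMM, DESeq2 and spike-in scaling and at -0.27 with deposited TPM. TMM, DESeq2 and spike-in scaling differ by a nearly constant shift, so only deposited TPM could have given another relative position. No member differed 2-fold between the pools, a size that 5.55% of all genes reached (4.06% higher and 1.49% lower in replicate 2). The median size of the difference, sign ignored, was 0.30 for the members and 0.18 for protein-coding genes.

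**Figure D4:**
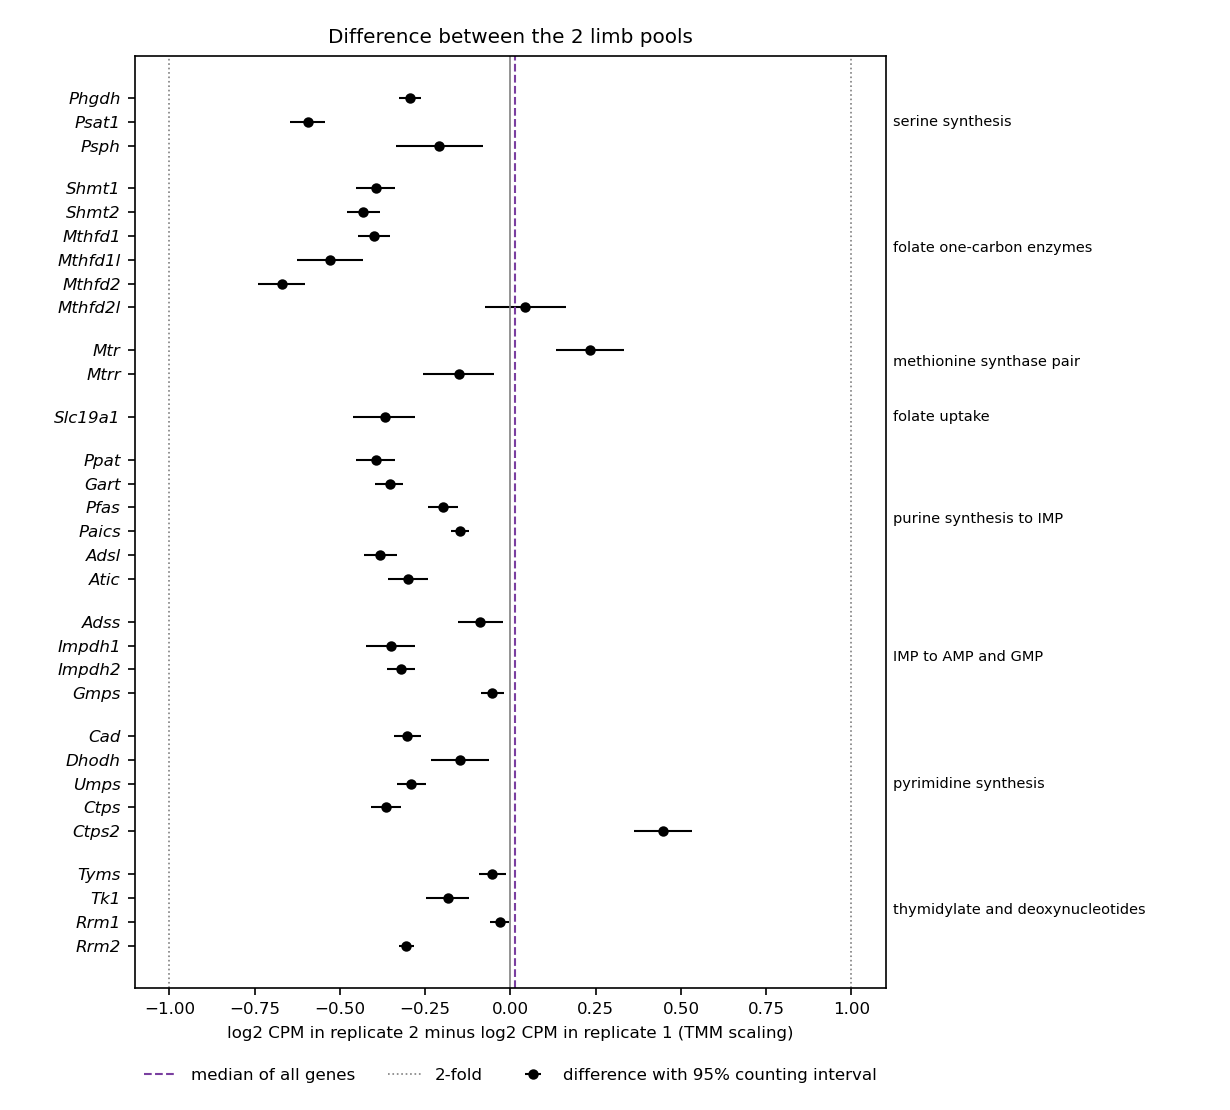
log2 CPM in replicate 2 minus replicate 1 (TMM scaling) for the 31 members averaging at least 10 counts; bars are exact binomial 95% counting intervals, the dashed line is the median of all genes (0.01) and dotted lines mark 2-fold. All but Ctps2, Mtr and Mthfd2l lie left of 0, from -0.67 (Mthfd2) to -0.03 (Rrm1); spike-in scaling would move every point right by about 0.25.

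The roles differed in where they lay relative to other genes with TMM. Folate enzymes had the lowest median, -0.43 relative to all genes, with Mthfd2 at -0.67, Mthfd1l at -0.53 and Shmt2 at -0.43 before that subtraction. Folate uptake, here Slc19a1 alone, followed at -0.38, then purine synthesis to IMP at -0.34, serine synthesis at -0.31, with Psat1 at -0.59 before the subtraction, and pyrimidine synthesis at -0.30. The IMP to AMP and GMP genes lay at -0.22 and the genes of thymidylate and deoxynucleotide supply at -0.13, with Rrm1 at -0.03 and Tyms at -0.05 before it. The methionine synthase pair lay at 0.03, with Mtr and Mtrr on opposite sides of 0. The 12 genes of the cycling-cell list, led by Cdk1 and Pcna, had a median of -0.14 relative to all genes. Under spike-in scaling 10 members below 0 with TMM came out above 0 (Psph, Mtrr, Pfas, Paics, Adss, Gmps, Dhodh, Tyms, Tk1 and Rrm1), and with deposited TPM 5 of them did so (Psph, Adss, Gmps, Tyms and Rrm1).

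Other marker genes differed between the pools as well. All 4 surface ectoderm markers were lower in replicate 2 under each scaling, with a median of -0.62 relative to all genes with TMM and a summed level of 153 TPM in replicate 2 and 205 TPM in replicate 1. The 4 erythroid markers had a median of -0.36 relative to all genes, with all 4 below 0 with TMM and 3 with spike-in scaling. Of 10 limb mesenchyme markers 4 were above 0 and 6 below with TMM, with a median of -0.20 relative to all genes but a summed level of 905 TPM in replicate 2 and 777 TPM in replicate 1, and Pitx1, a hindlimb gene, was at 127 TPM in replicate 2 and 65.0 TPM in replicate 1. The 3 muscle precursor markers went both ways: Myod1 had 566 counts in replicate 2 and 49 in replicate 1, Pax3 had 974 in replicate 2 and 1014 in replicate 1, and Lbx1 had 217 in replicate 2 and 335 in replicate 1. The part of these shifts in the members' difference was not tested.

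Among regulators known to act on these genes, Mycn, the MYC-family factor prominent in embryonic tissue, was at 129 TPM in replicate 2 and 201 TPM in replicate 1, a log2 difference of -0.78 with TMM. Myc was at 36.4 TPM in replicate 2 and 49.5 TPM in replicate 1, a log2 difference of -0.59. Atf4, the amino acid response factor that drives serine synthesis genes in other settings, was at 93.8 TPM in replicate 2 and 93.1 TPM in replicate 1. The 2 MYC-family genes were thus lower in the same library as most members, and with spike-in scaling Mycn was at -0.525 and Myc at -0.337. Atf4 differed by -0.13 with TMM and 0.12 with spike-in scaling. Of the 11 listed regulators, 10 were below 0 with TMM, with a median of -0.08, against 48.1% of all genes. With spike-in scaling 3 of the 11 were below 0, against 17.5% of all genes. Asns, asparagine synthetase, which like Psat1 is a known ATF4 target, was at 84.4 TPM in replicate 2 and 106 TPM in replicate 1. With 2 libraries no relation between these genes and the members can be tested.

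The rest of the pathway was expressed in most of its branches. The 4 genes of the glycine cleavage system, the other mitochondrial source of folate-bound carbon, were all expressed with a median of 73.7 TPM, from Gcsh at 147 TPM in replicate 2 and 167 TPM in replicate 1 to Gldc, the decarboxylase, at 11.5 TPM in replicate 2 and 16.3 TPM in replicate 1. Of 12 other folate genes 9 were expressed, with a median of 11.6 TPM, led by Fpgs, which adds glutamate to folate, at 26.6 TPM in replicate 2 and 29.6 TPM in replicate 1. In the methionine cycle 5 of 9 genes were expressed: Mat2a, which makes S-adenosylmethionine outside the liver, was at 344 TPM in replicate 2 and 345 TPM in replicate 1, while the liver form Mat1a had 0 counts in both. Methionine synthase itself thus lay far below Mat2a and below Ahcy, which was at 131 TPM in replicate 2 and 152 TPM in replicate 1.

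Salvage routes were present beside synthesis. Of 12 genes for ribose phosphate supply and purine salvage 10 were expressed, with a median of 38.2 TPM; Aprt was at 195 TPM (194.5) in replicate 2 and 206 TPM in replicate 1, and Hprt at 86.4 TPM in replicate 2 and 116 TPM in replicate 1. Of 17 genes for pyrimidine salvage and deoxynucleotide handling 16 were expressed, with a median of 53.6 TPM; Dut, which keeps uracil out of DNA, was at 216 TPM in replicate 2 and 258 TPM in replicate 1. Serine supply and use had 5 of 6 genes expressed, and the liver enzyme Sds, which degrades serine, had 0 counts in both libraries. With TMM, 9 of 11 purine salvage genes and 12 of 17 pyrimidine salvage genes with enough counts were below 0, against 48.1% of all genes; with spike-in scaling these numbers were 5 and 8, against 17.5% of all genes.

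Besides Ppat and Paics, several members share a start region with a gene on the other strand. Starts here are the outermost annotated 5′ ends of the genes. In all, 6 of 32 members (18.8%) had a protein-coding partner starting within 1000 bases on the opposite strand, against 10.9% of protein-coding genes. By that measure Mthfd2 starts 108 bases from Mob1a, a kinase activator gene at 53.2 TPM in replicate 2 and 45.2 TPM in replicate 1. The RefSeq promoter window of Mthfd2 lies inside the annotated gene, with its upstream part at chr6:83317605-83317854, whereas Mob1a begins at chr6:83326016. By the RefSeq start the genes are therefore not within 1000 bases. Mob1a was higher in the library in which Mthfd2 was lower. Gart starts 554 bases from Son, at 101 TPM in replicate 2 and 86.0 TPM in replicate 1, again in the opposite direction to Gart. Mtrr starts 85 bases from Fastkd3, and Tk1 168 bases from Afmid, which was at 2.77 TPM in replicate 2 and 2.02 TPM in replicate 1. With TMM, partners differed with opposite sign in Mthfd2 and Mob1a, in Gart and Son and in Tk1 and Afmid. The sign was the same in Ppat and Paics, in Mtrr and Fastkd3 and in Psph and Cct6a. The counting interval of Fastkd3, -0.17 to 0.03, included 0. These signs depend on the scaling. With spike-in scaling Ppat was at -0.142 and Paics at 0.105, and Psph (0.0443), Mtrr (0.102) and Tk1 (0.0687) came out above 0.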

How the data were processed

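Per the labels, 10 ng of total RNA above 200 nt, extracted with the mirVana method, entered each library with ERCC spike-ins, and a manual of the SMARTer Ultra Low kit is linked. The authors deposited, per library, gene and transcript tables with expected counts, TPM with a posterior mean TPM, bounds of a TPM interval (a signal-type value whose level the deposited tables do not state) and the percent of a gene's TPM taken by each transcript. Per the deposited text files the annotation was GENCODE M4 on mm10; the sources used here do not give aligner, quantifier or strand setting. TPM is scaled over all rows, spike-ins and mitochondrial genes included. Each library has its own deposited tables.

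GENCODE M21 on GRCm38 supplied symbols, transcript classes and coordinates, by identifier, for 42462 of 43346 gene rows. Expected counts were rounded and scaled by TMM (edgeR 4.0.16, prior count 2) or size factors (DESeq2 1.42.0). Counting intervals are exact binomial at 95% (scipy 1.17.1). Their test used simulated counts with counting error alone, so it cannot show how they hold for other spread in real counts. They cover counting error only. SDs are over 2 libraries, whose pools the labels call biological replicates. Near-identical stretches were sought with BLAST 2.17.0 at 97% identity over 100 nt. No test between groups was possible. The text names all members, the 4 highest and the lowest gene of each other list, both genes of a pair (1 further planned pair is not reported here), and neighbours within 1000 bases; Col18a1, which overlaps Slc19a1, was named after its values were seen. Members and lists were chosen with earlier results of these data known.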

Additional observations from a re-analysis of the deposited data

How the results depend on the processing

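No paired analysis was possible because all samples belong to 1 group and share no replicate number with another. The members' median level was 68.9 TPM. It was 84.5 TPM when TPM was rescaled over protein-coding genes outside the mitochondrial genome, 64.7 TPM over protein-coding transcripts alone (29 members, an alternative chosen after seeing the data), and 72.1 to 75.7 TPM with 1 library left out. The posterior mean column gave 68.3 TPM and 32 expressed members in place of 31, since Folr1 passed; the other thresholds and columns tried gave 31. The median log2 difference of -0.30 came to -0.0472 with spike-in scaling and -0.151 with deposited TPM. The median of all genes was also higher under both, at 0.264 with spike-in scaling and 0.116 with deposited TPM, against 0.0133 with TMM. With no count filter 1 member, Folr1 with 0 and 2 counts, passed 2-fold in place of 0. With spike-in scaling the log2 difference was positive for Psph (0.0443), Mtrr (0.102), Pfas (0.0554), Paics (0.105), Adss (0.165), Gmps (0.20), Dhodh (0.105), Tyms (0.20), Tk1 (0.0687) and Rrm1 (0.222), and with deposited TPM for Psph (0.0346), Adss (0.0522), Gmps (0.0836), Tyms (0.0905) and Rrm1 (0.106). Pairs called numbered 8 with a 2-fold rule in place of interval bounds, and 10 to 11 with 1 library left out. Over protein-coding transcripts all 10 called pairs kept their direction. The same transcript led in 31 of 31 members with posterior mean shares and among coding transcripts. A difference between libraries cannot be had with either left out. Among the members, depth limits only Folr1. All results rest on 2 pools, beside the limits given with each of them.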
